A study of Drosophila melanogaster with 2 samples.

Results

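Of the 3424 binding sites of Irbp18 on the chromosome arms X, 2L, 2R, 3L and 3R, 416 had their summit in an intron and near, but not at, a transcription start. They were chosen by position alone. The summit of the peak had to lie inside an annotated gene, in no exon of any transcript, and more than 500 bp but at most 2000 bp from the nearest annotated start of any gene. The other sites comprised 528 intron sites beyond 2000 bp, called deep intron sites here, 1899 sites within 500 bp of a start, 427 intergenic sites and 154 exon sites. The sites came from chromatin immunoprecipitation followed by sequencing (ChIP-seq) of whole Drosophila melanogaster embryos aged 0 to 24 h, in 2 biological replicates of 1 group. All embryos were from transgenic flies carrying CG6272, another name of Irbp18, fused to eGFP, and the fusion protein was precipitated through the GFP tag. Both replicates came from the same strain, and whether untagged Irbp18 was also present is not stated. No control library and no second condition were analysed here, so the comparisons are between kinds of sites. In whole embryos, strong binding in a few cells and weaker binding in many cannot be told apart.

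Irbp18 belongs to the C/EBP branch of the basic leucine zipper (bZIP) proteins. It binds DNA as a pair, with Xrp1, a factor of the DNA damage response and of cell competition, among its known partners. First introns of fly genes often hold enhancers, and many fly genes have alternative starts, so that an intron of a long transcript can also be the upstream region of a shorter one.

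Sequences around 6 of the strongest sites are shown first, since their signal was among the highest of the class. Each is the summit base with 50 bases on either side, from the plus strand of the RefSeq release of dm6. Capitals mark matches to any of the 18 motifs searched below.
CG11050 intron (chr2L:6612669-6612769): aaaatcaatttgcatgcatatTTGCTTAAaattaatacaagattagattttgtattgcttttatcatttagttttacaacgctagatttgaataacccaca
ush intron (chr2L:481033-481133): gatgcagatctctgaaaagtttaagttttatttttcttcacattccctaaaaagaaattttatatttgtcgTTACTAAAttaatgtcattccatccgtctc
CG32772 intron (chrX:4910321-4910421): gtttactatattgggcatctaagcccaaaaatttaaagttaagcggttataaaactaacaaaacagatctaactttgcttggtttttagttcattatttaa
Lk6 intron (chr3R:11760994-11761094): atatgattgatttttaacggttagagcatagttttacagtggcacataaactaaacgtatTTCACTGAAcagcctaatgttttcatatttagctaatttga
CG9663 intron (chr2L:3302147-3302247): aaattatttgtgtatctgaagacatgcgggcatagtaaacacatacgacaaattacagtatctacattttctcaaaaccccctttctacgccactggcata
Trl intron (chr3L:14759467-14759567): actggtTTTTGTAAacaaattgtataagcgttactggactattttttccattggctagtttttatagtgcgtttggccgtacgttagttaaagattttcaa
In CG11050, ush and Trl the capitals are matches to the relaxed C/EBP site, and in Lk6 a match to the Stat site. The summit windows of CG32772 and CG9663 held none of the 18 motifs. GC content of these windows ran between 24.8% in CG11050 and 37.6% in CG9663.

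The second set holds the matches nearest to what is known of Irbp18's protein family. Capitals mark the CARE, the composite site of the C/EBP and ATF4 families.
Baldspot intron (chr3L:16660593-16660693): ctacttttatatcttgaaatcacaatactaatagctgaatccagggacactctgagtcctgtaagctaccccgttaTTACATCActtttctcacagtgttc
Diap1 intron (chr3L:16046113-16046213): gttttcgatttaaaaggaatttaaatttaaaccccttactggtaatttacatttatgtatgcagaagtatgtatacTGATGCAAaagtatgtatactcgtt
lute intron (chr3R:17386555-17386655): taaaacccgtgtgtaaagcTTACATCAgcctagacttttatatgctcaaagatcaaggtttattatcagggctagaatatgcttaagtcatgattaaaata
ru intron (chr3L:1378983-1379083): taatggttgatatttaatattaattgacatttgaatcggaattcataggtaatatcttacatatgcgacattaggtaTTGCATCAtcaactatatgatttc
Cnx99A intron (chr3R:29318892-29318992): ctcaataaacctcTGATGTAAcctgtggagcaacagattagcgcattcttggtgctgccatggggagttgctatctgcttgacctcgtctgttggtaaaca
These are 5 of the 6 intron sites near starts with a CARE within 50 bp of the summit, and the sixth lay in shn. None was among the 18 strongest sites that both replicate lists held.

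The signal value, the authors' measure of peak height, was 124 in the median of the 416 sites (quartiles 92.4 and 200), and it spanned 4.26 to 2099. Its scaling is not stated, so it ranks sites within a list and says nothing of occupancy. Deep intron sites had a median of 114.6 (82.4 and 161), sites within 500 bp of a start 132 (93.1 and 224), and all sites 121 (87.4 and 193). These ranges overlapped over most of their width. The 856 strongest sites were the top 25% of all 3424. They included 110 of the 416 (26.4%, exact Clopper-Pearson 95% interval 22.3 to 31.0), close to that share. The same held for 89 of 528 deep intron sites (16.9%, 13.8 to 20.3) and 570 of 1899 sites within 500 bp of a start (30.02%, 27.96 to 32.1), which were below and above it. Of the strongest 10 sites 3 were intron sites near starts, and of the strongest 100 sites 15 were. The class made up 416 of all 3424 sites.

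The strongest site of the class lay in CG11050 (FBgn0031836; chr2L:6612544-6612890), with 1205 in replicate 1 and 898 in replicate 2. Its summit was 1032 bp downstream of the gene's start, in an intron of only 140 bp, so the peak also covered exon sequence. Next came an intron of ush (FBgn0003963; chr2L:480915-481265), which encodes a Friend-of-GATA cofactor, with 1202 in replicate 1 and 863 in replicate 2. The nearest start there was not one of ush but that of cbt, a zinc finger factor gene, 1395 bp away, and this start held a site of its own. The site of Adf1 (FBgn0284249; chr2R:6662898-6663229), a gene for a Myb-type DNA-binding protein, had 1026 in replicate 1 and 719 in replicate 2. CG32772 (FBgn0052772; chrX:4910202-4910542) had 921 in replicate 1 and 664 in replicate 2. The site in Lk6 (FBgn0017581; chr3R:11760898-11761183), the kinase of the cap-binding protein eIF4E, had 740 in replicate 1 and 527 in replicate 2. Each of these sites had the higher value in replicate 1, whose scale against replicate 2 is not known.

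Those 5 sites belonged to the 18 strongest that both replicate lists held, which all ranked 119 or better among all sites. HmgZ (chr2R:21703147-21703631), for a high mobility group chromatin protein, had a pooled signal of 1148. CG9663 (841) and Trl (808), the gene of the GAGA factor, followed, and the Trl site at chr3L:14759353-14759671 had 457 in replicate 1 and 351 in replicate 2. The next were norpA (807), for the phospholipase C of phototransduction, NFAT (778), LPCAT (769), for a phospholipid acyltransferase, and KCNQ (757), for a potassium channel. Signal values between 611 and 714 were found in MYPT-75D, CG3726, CG4496, mub, chif and CHES-1-like. Among them mub encodes a KH-domain RNA-binding protein, chif the fly Dbf4 and CHES-1-like a forkhead factor. Of these 18 sites, 15 lay in a first intron, 15 had a start of the host gene nearest, and 9 lay downstream of the nearest start. At 4 of them (ush, LPCAT, KCNQ and chif) the nearest start held a site as well.

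**Figure D1:**
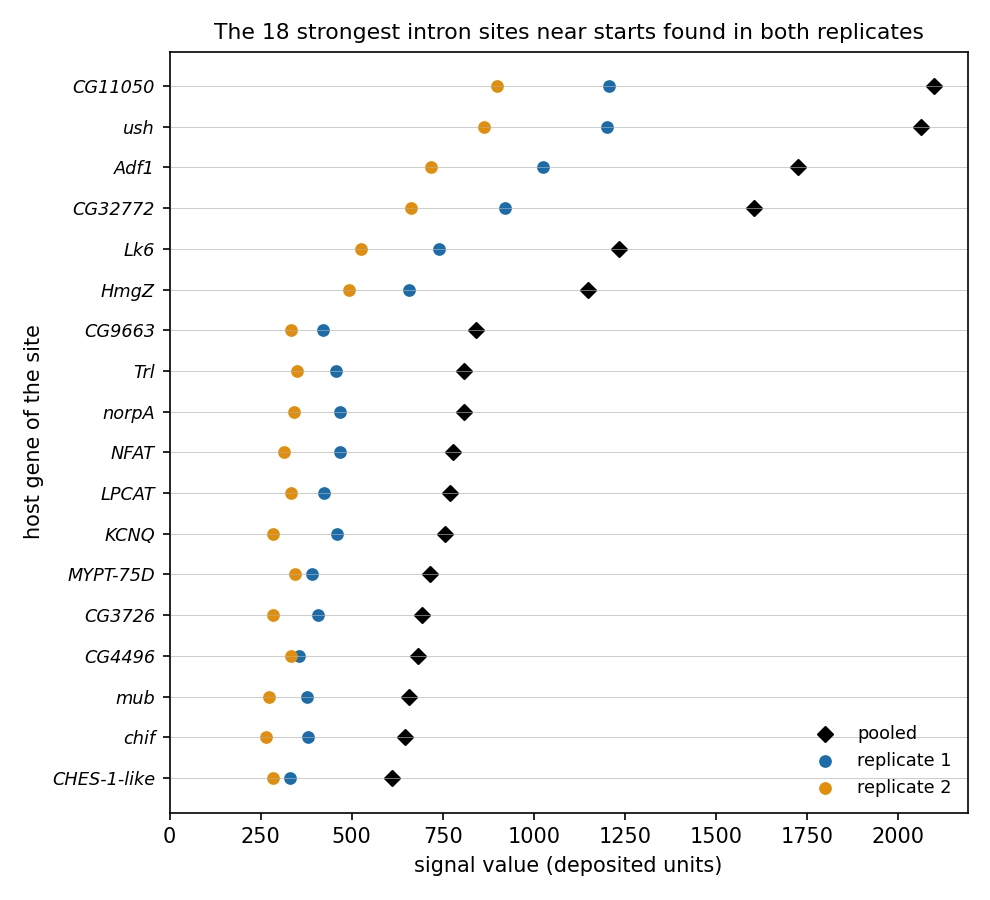
Signal values of the 18 strongest intron sites near starts that both replicate lists held, in the deposited units, by host gene. Black diamonds are the pooled value, blue and orange points are replicate 1 and replicate 2. Replicate 1 was the higher in all 18, by 1.07 to 1.61 times, and CG11050 and ush stand at the top with pooled values of 2099 and 2064.

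The sites recurred only in part between the thresholded lists of the replicates. Summits within 100 bp in both replicate lists were found for 220 of 416 sites (52.9%, 48.0 to 57.8), where 47.2% of all 3424 sites did so. The share was 43.4% (39.1 to 47.7) for deep intron sites and 51.2% (49.0 to 53.5) for sites within 500 bp of a start. Replicate 1's list held 285 of the 416 (68.5%), replicate 2's list 250 (60.1%), and 24.3% (20.2 to 28.7) were in neither. Among the unthresholded candidates of the ranked lists, 393 sites (94.5%) had a summit in both replicates, beside 90.8% of all sites. These lists were dense, with 117490 candidates in replicate 1 and 113421 in replicate 2 on the arms. How many sites would match by position alone was not tested. Over these 393 sites, replicate 1 was higher in 333, with a median ratio of replicate 1 to replicate 2 of 1.30 (quartiles 1.09 and 1.53). Since scaling and read depth are not known, this ratio cannot be told apart from a difference in scale between the lists. Signal values of the replicates went together across the sites (Spearman rho 0.82, and 0.76 in the middle 80% by replicate 1 signal). The pooled list had itself been thresholded on reproducibility. Recurrence and correlation were thus partly set by how the sites were listed, and are no independent measure. Sites in both lists had a median pooled signal of 192, and those in neither list 80.6.

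**Figure D2:**
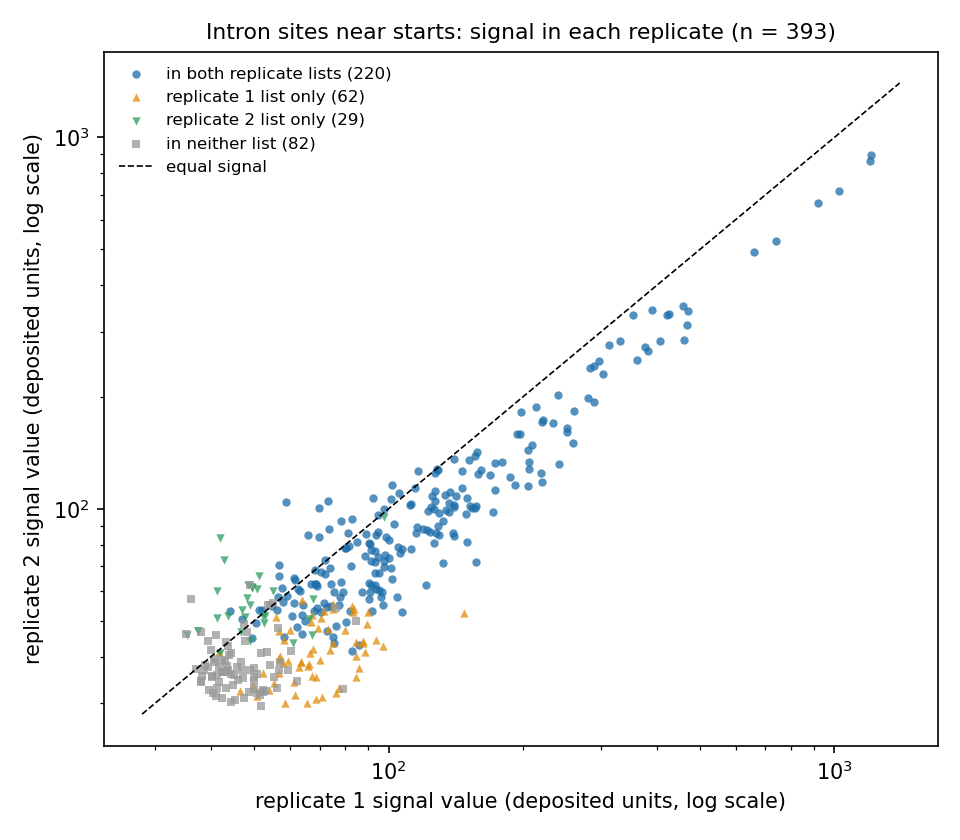
Signal value of the 393 intron sites near starts with a candidate summit in both replicates, replicate 1 on the horizontal and replicate 2 on the vertical axis, both on log scales in deposited units. Colours and shapes show which thresholded list held the site, and the dashed line marks equal values. Most points lie below the line (333 of 393), and the sites in neither list gather at the low end.

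The weakest sites of the class sat beside sites of higher signal. A signal value under 20, a limit chosen after the values were seen, was found for 11 of the 416 sites, from 4.26 in MESK2 to 15.03 in CG10543. All 11 intervals overlapped another site of higher signal, from 74.97 beside Nep3 to 346 beside egh, and the 2 summits were 199 to 239 bp apart. None of the 11 had a candidate summit within 100 bp in either replicate's ranked list, although their pooled IDR (irreproducible discovery rate) lay between 1.34e-05 in egh and 0.00461 in Nep3. In all, 34 of the 416 intervals overlapped another site, again with summits 199 to 239 bp apart. Intervals were 356 bp wide for 313 of the 416, the narrowest was 89 bp and the widest 485 bp, and 379 lay wholly in intron.

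Sites thinned out with distance from a start. Introns held 37.0 sites per Mb between 500 and 2000 bp from a start (416 sites on 11.3 Mb, exact Poisson 95% interval 33.5 to 40.7), against 12.9 per Mb beyond 2000 bp (11.8 to 14.02) and 107 per Mb of any sequence within 500 bp of a start (102 to 112). From 500 to 750 bp the density was 56.8 per Mb (47.3 to 67.5), from 1000 to 1250 bp 34.8 (27.0 to 44.2), and from 1750 to 2000 bp 25.3 (17.99 to 34.6). It was 18.5 from 2000 to 3000 bp and 7.30 beyond 10000 bp. Within 1000 bp of a start lay 211 of the 416 (50.7%, 45.8 to 55.6). The signal value had no such trend with distance, with a Spearman rho of -0.01 over the 416 sites and medians of 124, 122 and 127 from 500 to 1000, 1000 to 1500 and 1500 to 2000 bp.

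**Figure D3:**
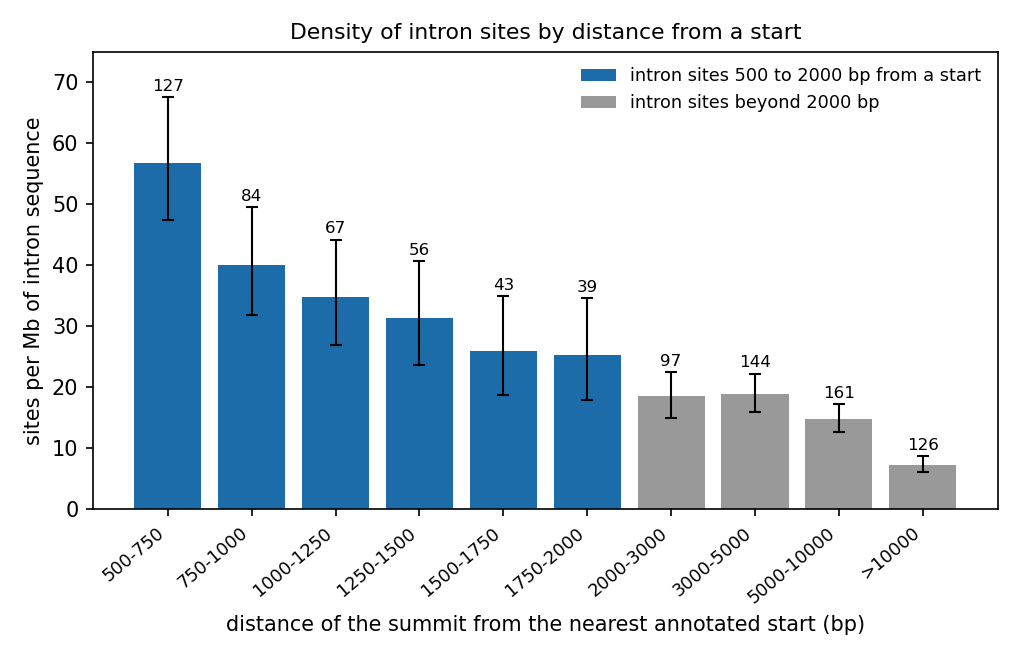
Intron sites per Mb of intron sequence in bins of distance from the nearest annotated start (bp). Bars are densities, with those of the intron sites near starts in blue and of deep intron sites in grey, error bars are exact Poisson 95% intervals and the numbers above are sites. The density was 56.8 per Mb in the first bin and 7.30 per Mb in the last.

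At the limits of the rule, aru (447) and capu (70.2) had their summits 501 bp from a start and were inside. Sites in introns of ph-p (1762, at 499 bp) and mats (115.01, at 498 bp) were outside. CG32795 (79.6, at 1998 bp) and RhoGAP18B (172, at 1997 bp) were just inside the upper limit, and IP3K2 (73.5, at 2017 bp) and CHES-1-like (128, at 2018 bp) just outside. By IDR, Oda (0.00994) and app (0.00992) were the last to be listed, and a candidate in Rbfox1 (0.01001) was not. A candidate in lncRNA:CR44833 with an IDR of 0.00128 was absent from the thresholded list as well, and the reason is not stated.

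First introns held 327 of the 416 sites (78.6%, 74.3 to 82.5), against 292 of 528 deep intron sites (55.3%, 50.9 to 59.6), where the intron number is the lowest over the host's transcripts. Of the intron sequence that the rule allows, 64.6% lay in a first intron of some transcript, and by the same count 332 of the 416 sites did (79.8%, 75.6 to 83.6). The host's introns were long, with a median of 5778 bp (quartiles 2275 and 12498), and 39 sites lay in introns of at most 1000 bp. First-intron sites had a median signal of 130, and those in later introns 106, with overlapping quartiles (97.5 to 211, and 81.1 to 159).

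The host gene's own start was the nearest for 345 sites (82.9%, 79.0 to 86.4), against 332 of 528 deep intron sites (62.9%, 58.6 to 67.0). Of the 345, 231 lay downstream of that start. The other 114 lay upstream of an internal start of the same gene, inside a longer transcript, as in Lk6, HmgZ and NFAT. For 71 sites the nearest start was another gene's: 38 protein-coding genes, 27 noncoding RNA genes, 5 tRNA genes and 1 snoRNA gene. Median signal was 129 downstream of the host's start, 128 upstream of an internal one and 107 where another gene's start was nearest. Counting every gene, 250 of the 416 sites were downstream of the nearest start (60.1%, 55.2 to 64.8), beside 64.4% of the allowed intron sequence.

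A start with a site of its own stood near 104 of the 416 (25%, 20.9 to 29.5). This compares with 85 of 528 deep intron sites (16.1%, 13.1 to 19.5) and 13.2% of all 23132 annotated starts. The units differ. Shares of sites can count the same start more than once, while the share of starts counts each start position of any gene once. Signal hardly differed between the 104 sites and the other 312, with medians of 129 and 123. Another site of any class lay within 500 bp of 36 sites and within 1000 bp of 99.

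The 416 sites fell in 340 host genes, of which 279 held 1, 49 held 2 and 12 held 3 or more. Among the 12 were NFAT (4 sites), CHES-1-like, the forkhead gene, shn, whose zinc finger protein works with Mad, Tlk, for the tousled-like kinase, and C3G, for an exchange factor of Rap1 (3 each). The others with 3 were HmgZ, Tpr2, a co-chaperone gene, Kank, CG10543, CG32264 and dlg1, which encodes a scaffold of septate junctions and synapses. These counts take in weak sites that overlapped a stronger site of the same host. Such were those of 15.03 in CG10543, 10.2 in CG1677, 7.34 in C3G and 6.61 in NFAT. None of them had a candidate summit in either replicate. In NFAT (chrX) the sites had signal values of 778, 268, 144 and 6.61, and in HmgZ 1148, 154 and 99.9. The 3 sites of CHES-1-like had 611, 338 and 202, all in both replicate lists. Those of dlg1 were weaker, at 130, 109 and 70.6, and none was in both. CG1677 held the most, 5, with values of 256, 198, 129, 113 and 10.2. All 5 lay in a single intron of 73902 bp, and their nearest starts were those of unc-119, CBP and brk, so the host is a name by position only.

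Host genes were set against lists of gene groups, whether or not the host's own start was the nearest. Of 8934 protein-coding genes with any allowed intron sequence, 339 (3.79%) held a site, but these had a median of 3645 bp of such sequence, against 381 bp over all, so the number of sites per Mb is given beside each share. RNA-binding and splicing genes held sites in 7 of 23 cases (30.4%; 69.9 sites per Mb, against 37.0 over all introns near starts). The strongest were mub (658), the translational repressor genes brat (537) and pum (175), and ps (150), the fly Nova. The 10 sites behind this density include overlapping intervals in ps (150 and 30.9) and in Rbfox1 (48.6 and 27.1). The weaker ps site had no candidate summit in either replicate, and each Rbfox1 site had a candidate in 1 replicate only. Chromatin regulators had 4 of 26 (15.4%; 140 per Mb), Trl (808 and 169), the Polycomb gene ph-p (138), kis (99.3) and psq (83.6). BTB and zinc finger factors had 5 of 23 (21.7%; 79.9 per Mb): ush (2064 and 173), Trl and psq, which the chromatin list holds too, and rib and fru.

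Signalling genes held sites in 7 of 51 cases (13.7%; 51.9 per Mb). The SMAD gene Mad had 318 (206 in replicate 1, 115.2 in replicate 2), the ubiquitin ligase gene neur 215, shn 213 and the Sprouty gene sty 193. Muscle genes had 4 of 19 (21.1%, 44.5 per Mb), Msp300 (327 and 81.1), Zasp66 (230), mbc (192) and kirre. Neuronal guidance and synapse genes had 4 of 23 (17.4%, 53.0 per Mb), led by dlg1 (130), fra (130) and trio (111). At the sites of kirre, fra and trio the nearest start was another gene's (CG4116, CG33752 and CG9205). Genes of cytoskeleton, adhesion and polarity had 4 of 27 (47.4 per Mb), the cofilin gene tsr (200), crb (148), the talin gene rhea (142) and shot (82.2). Of the bZIP genes, 2 of 14 held sites (68.7 per Mb on 58.2 kb). These were CrebB (120 and 102) and kay, the fly Fos (112 and 81.7). At the kay site of 81.7 a noncoding RNA gene's start was nearest, as at the sites of pum (175) and kis (99.3). Sites in 1 gene each were found for the integrated stress response (trbl, 178, of 12, 99.9 per Mb) and insulin and TOR (Lk6, of 16, 28.9 per Mb). Nuclear receptors had EcR (201, of 17, 10.3 per Mb), where the nearest start was a tRNA gene's. Cell death and JNK had Diap1 (235, of 10, 44.3 per Mb), and the circadian clock had dco (82.9, of 9, 37.7 per Mb). Patterning factors had Abd-B (93.5, of 35, 12.1 per Mb). Each of these densities rests on 1 site. Those of insulin and TOR, nuclear receptors and patterning factors were below the 37.0 over all. The ribosomal protein genes had 0 of 27, which allows a share of up to 11.1%, on 5.34 kb of allowed intron in all. Tissue markers gave ush for hemocytes and fat body (2 sites, of 8 genes, 87.6 per Mb) and crb for trachea and epidermis (1 site, of 5 genes, 67.2 per Mb). They gave none for glia (of 3), gut (of 4) or germline (of 4), on 1.47, 6.81 and 3.77 kb of allowed intron. So little sequence allows shares of up to 100%, 75% and 75%, and shows no contrast between tissues.

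The DNA at the summits was poor in G and C. The summit windows, 50 bp to each side, had a median GC content of 33.7%, against 39.6% in windows centred 500 bp farther from the start and 38.6% in the median of 97013 windows tiling the allowed introns. Summits were below their own flank in 269 of 416 cases (64.7%, 59.9 to 69.3), with a median difference of -5.94 points (exact order-statistic 95% interval -7.92 to -3.96). Flanks lying wholly in intron, 360 in number, gave -4.95 points (-6.93 to -1.98). The dip was no mark of the class, since the median difference was -7.92 points at deep intron sites and -6.93 points at sites within 500 bp of a start. Mean GC in windows of 50 bp, moved in steps of 25 bp, was lowest at the summit itself (34.6% ± 0.568, SE over 416 sites) and highest 200 bp away on the side of the start (43.9%).

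**Figure D4:**
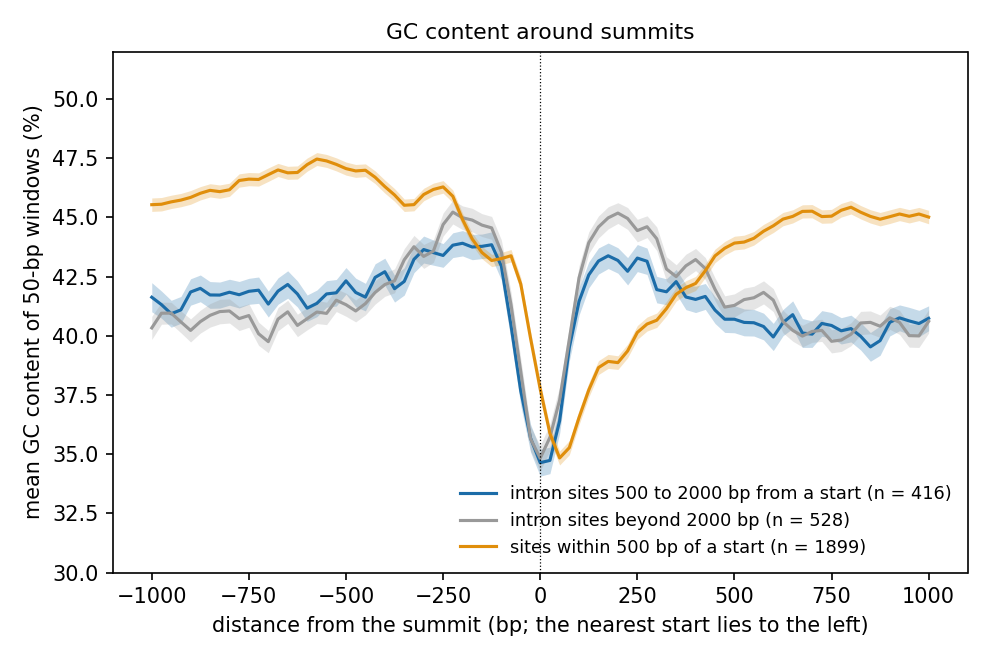
Mean GC content (%) of 50-bp windows by distance from the summit (bp), with each site turned so that its nearest start lies to the left. Lines are means over sites and bands are 1 SE, blue for intron sites near starts, grey for deep intron sites and orange for sites within 500 bp of a start. Both intron classes dip to about the same level at the summit (34.6% and 34.8%), and the third is lowest 50 bp beyond it (34.8%).

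The 18 motifs were looked for, forward and reversed, in the summit windows and in flank windows 500 bp farther from the start, and none (0%) passed the exact McNemar test after Benjamini-Hochberg adjustment. At an unadjusted p below 0.05 there was 1. The CARE (TGATGCAA or TGATGTAA) was at 6 summits and 2 flanks (1.44%, 0.531 to 3.11, against 0.481%; exact McNemar adjusted p = 1) and in 0.640% of the tiling windows. The C/EBP palindrome (TTGCGCAA) was at 0 summits, which allows a share of up to 0.721% (3 counts of 416), and 1 flank, and in 0.196% of the tiles. The relaxed C/EBP site (TTACNNAA or TTGCNNAA), which takes in that palindrome and the PAR site (TTACGTAA), was at 73 summits and 66 flanks (17.5% against 15.9%; exact McNemar adjusted p = 1), close to the 16.6% of tiles. The PAR site itself was at 2 summits and 1 flank (0.112% of tiles). Other bZIP sites were as rare, with the CRE (TGACGTCA) at 0 summits and 2 flanks (0.216% of tiles) and the AP-1 site (TGACTCA or TGAGTCA) at 4 and 4 (1.27% of tiles).

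Diap1, which encodes an inhibitor of apoptosis, had its CARE 26 bases from the summit and signal values of 125 and 108 in replicates 1 and 2. Baldspot, a fatty acid elongase gene, had 152 and 102, and shn 57.9 and 56.0. These were the CARE sites in both replicate lists. The sites of lute (67.4 and 35.4), ru (56.0 and 51.3), a rhomboid protease gene, and Cnx99A (45.3 and 30.5), the calnexin gene, were not. Their pooled signals ran between 73.1 in Cnx99A and 260 in Baldspot.

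The motif with the lowest p was that of the GAGA factor (GAGAGAG), which was scarcer at the summits than at the flanks. It was at 2 summits and 14 flanks (0.481%, 0.0583 to 1.73, against 3.37%, exact McNemar p = 0.00418, adjusted 0.0753). The share of tiles, 1.70%, lay inside the summit interval. Deep intron sites had the same contrast, at 2 summits and 21 flanks (exact McNemar adjusted p = 0.000594). Sites within 500 bp of a start held it at 17 summits and 33 flanks, and intergenic sites at 4 and 5. The adjusted exact McNemar test passed in neither. At intron sites near starts, with flanks on the side of the start, the ratio of summits to flanks was 0.125 and the adjusted p of the exact McNemar test 0.0236. The CA repeat (CACACACA) was at 7 summits and 16 flanks (2.73% of tiles), the Su(H) site (GTGGGAA) at 1 and 6 (1.39%) and the E-box (CACGTG) at 3 and 6 (1.13%). Promoter motifs were rare. The DRE (TATCGATA) was at 1 summit and 3 flanks (0.205% of tiles), where sites within 500 bp of a start held it at 118 of 1899 summits (6.21%, 5.17 to 7.40). Motif 1 (GGTCACAC) was at 1 and 1 (0.139%). Of the developmental motifs, the homeodomain core (TAATTA) was at 35 summits and 29 flanks (8.37% of tiles), the Stat site (TTCNNNGAA) at 10 and 8 (3.27%), the Twist/Snail E-box (CAGGTG) at 10 and 11 (2.94%), the Pho site (GCCATNTT) at 7 and 7 (2.04%), the GATA site (AGATAAG) at 6 and 7 (1.59%) and the Zelda site (CAGGTAG) at 1 and 0 (0.445%).

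**Figure D5:**
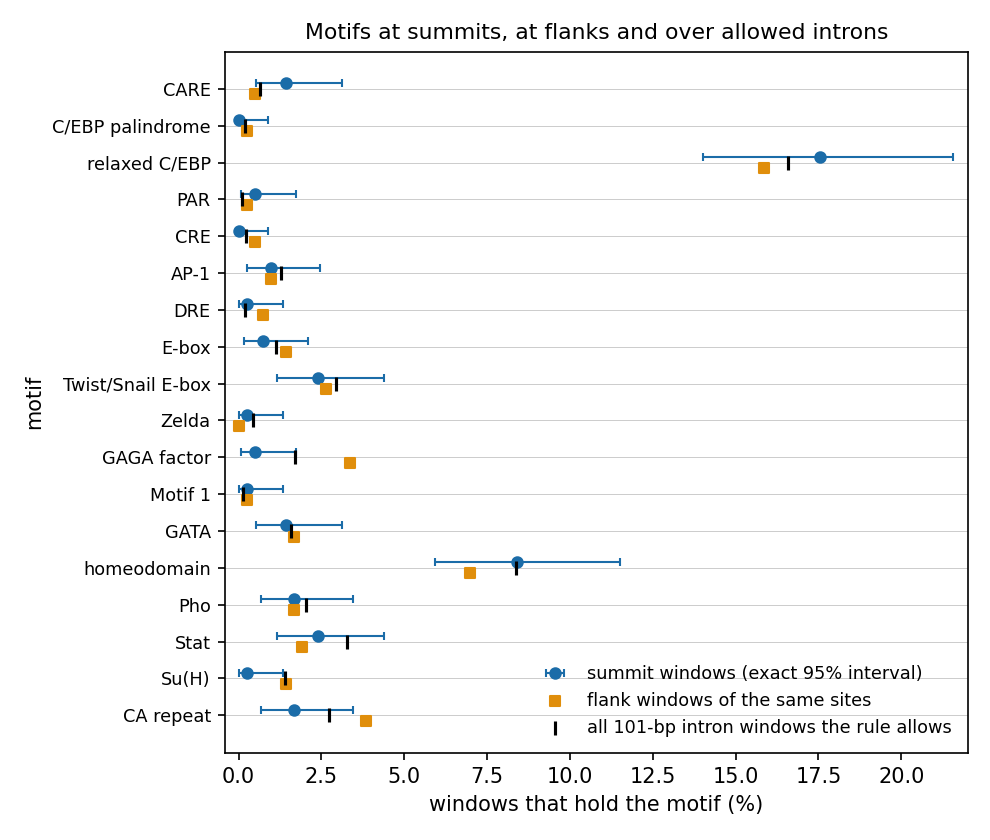
Share of windows (%) that hold each of the 18 motifs. Blue points are the 416 summit windows with exact 95% intervals, orange squares the flank windows of the same sites and black ticks all windows of that length that tile the allowed introns. The relaxed C/EBP site is the commonest, at 17.5% of summits. For the GAGA factor motif, the flank share (3.37%) lies outside the interval of the summit share and the tile share (1.70%) inside it.

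Among all words of 6 bases, read on either strand, 1486 were in at least 20 of the windows. Of these, 20 (1.35%) were commoner at summits and 9 (0.606%) commoner at flanks (exact McNemar test, adjusted p below the threshold). The words of the summits were rich in A and T, 11 of the 20 having no other base. AATATT was at 78 summits and 28 flanks (exact McNemar adjusted p = 0.000626), TTACAA at 57 and 22 (adjusted p = 0.00836) and ACTGTA at 45 and 15 (adjusted p = 0.00591). CCAACG was at 2 summits and 26 flanks (exact McNemar adjusted p = 0.0015) and GGAGGA at 3 and 27 (adjusted p = 0.00251). Of the 20 words, 18 had 5 or 6 bases of A or T, beside 228 of all 1486, and of the 9 words 8 had 3 or more of G or C. Any part of the GC difference of -5.94 points in these words was not tested. The count depended on the flank. With flanks wholly in intron 6 words were called, 4 of them commoner at summits, which were ATATTA and the 3 just named.

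These words, picked after their values were seen, were also counted in the deep intron sites, the sites within 500 bp of a start and the intergenic sites. AATATT was at 18.8% of the summits of intron sites near starts (15.1 to 22.8), at 20.1% of deep intron summits (16.7 to 23.8) and at 13.8% of summits within 500 bp of a start (12.3 to 15.4), and in 10.53% of tiles. Intergenic sites held it at 56 of 427 summits (13.1%, 10.06 to 16.7) and 49 flanks. TTACAA was at 13.7% (10.55 to 17.4), 11.9% (9.29 to 15.01) and 10.6% (9.29 to 12.1) in that order, at 8.67% of intergenic summits (6.17 to 11.7), and in 8.30% of tiles. ACTGTA was at 10.8% of the summits of intron sites near starts (8.0 to 14.2), at 5.49% of deep intron summits (3.71 to 7.79), at 4.95% of summits within 500 bp of a start (4.02 to 6.02), at 5.39% of intergenic summits (3.44 to 7.97), and in 3.73% of tiles. Since the words were chosen on the intron sites near starts, the differences from other classes are a description and were not tested.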

How the data were processed

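ChIP-seq of GFP-tagged Irbp18 in whole embryos aged 0 to 24 h was deposited as peak lists on dm6, 1 group of 2 biological replicates whose numbers come from the labels. Sonicated chromatin had a size range of 200 to 800, per the labels. Not given in the sources used here are the aligner, the caller and the scaling, and read depth is unknown. The lists hold the authors' signal value for each peak, the authors' score with a ceiling of 1000, and, in the ranked lists, the deposited −log10 of the global IDR. Pooled lists were made by the authors from both replicates. The 8 signal columns of single call sets in the ranked lists were not used.

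Sites were the summits of the conservative thresholded list. Genes came from Ensembl BDGP6.54, release 115, without pseudogenes and transposable elements, on a reference whose arms contain all candidate ends, and sequence came from the RefSeq genome of the same build. The host was the gene over the summit with the closest start of its own, protein-coding ones first, and was protein-coding for 415 of the 416 sites. Summits within 100 bp counted as shared. Motif and word shares were compared with the two-sided exact McNemar test, each site with its own flank, adjusted by the Benjamini-Hochberg method with a threshold of 0.05 (pandas 2.3.3, numpy 2.4.6, scipy 1.17.1, matplotlib 3.10.9). The scan was checked on simulated data. Intervals are 95% and cover counting error only, and p-values measure these sites, not the spread between embryo collections. Sites near one another are not independent.

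The members, gene lists, motifs and alternatives were chosen with earlier results of these data known. Motif tallies, words and class comparisons had been looked at before the text was planned. Named by rule were the 20 sites of highest signal in both replicate lists, hosts with 3 or more sites, up to 4 sites a gene list, the sites at each limit and those with a CARE or C/EBP palindrome. Of the 20, the first 18 are described, and 1 of the others is not reported here. Sequences from 2R are not shown.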

Additional observations from a re-analysis of the deposited data

How the results depend on the processing

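The number of sites was 205 with a lower distance limit of 1000 bp, and 266 to 317 in the lists of single replicates. It was 623 at a global IDR of at most 0.05. The share in both replicate lists was 65.1% among sites at the top score, 45.7% with summits within 50 bp and 57.9% with 1 site a host gene. The share with the host's own start nearest was 89.8% with protein-coding starts only, and 84.5% to 86.5% in single-replicate lists. First introns took 80.4% to 82.7% there. The share within 1000 bp of a start was 50.8% to 52.4% in single-replicate lists. It was lower, at 48.9%, in the other thresholded pooled list, and 46.2% at a global IDR of at most 0.05. Windows within 100 bp gave a GC difference of -3.48 points. With flanks on the side of the start, 1 motif was called, and 48 words, 29 of them commoner at summits. The word count was 6 with flanks wholly in intron. The single-replicate lists called 0 motifs each. Chosen after seeing the data were 1 site a host gene for the words (16 called, 11 commoner at summits), words of 8 bases in at least 20 windows (3 called of 154) and words of 8 bases in at least 10 discordant pairs (0 called of 942 by the exact McNemar test, 94 at an unadjusted p below 0.05, with 3 by the other filter), and 6-base words in at least 20 discordant pairs (29 called of 1453). The cause of these differences was not tested, beyond that fewer sites or words entered some of them. Of 93 values under the alternatives, 74 stayed on the same side of the threshold, within the interval of the value reported or, for counts, within 1.5 times of it. The relaxed C/EBP ratio of summits to flanks crossed 1, at 0.922 with windows within 100 bp against 1.11 as reported. The CARE ratio, 3 as reported, was 0 with a lower distance limit of 1000 bp and 1 with windows within 25 bp. None of these ratios had passed the exact McNemar test. Ratios against a flank count of 0 were not formed. No paired analysis was possible because the samples form 1 group.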
